A study of Sus scrofa with 13 samples.

Results

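A group of 36 genes of pig skeletal muscle was low at day 30 and higher both before and after. They were chosen by their RPKM in longissimus dorsi, the long back muscle, as Ensembl genes with at least 5 RPKM at day 0 and at day 240, each of these values being at least 4 times that at day 30. RPKM is the number of reads per kilobase of gene, scaled to the total reads of the library. The limits were met by 36 of the 1583 genes that reached 5 RPKM at both day 0 and day 240, which is 2.27%, among 21607 Ensembl genes in all. The muscle values at days 0, 30 and 240 chose these genes and are given as a description without a test.

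Total RNA depleted of ribosomal RNA was sequenced in 13 libraries. Guizhou mini-pigs gave 11 of them: longissimus dorsi at days 0, 30 and 240, and testis, ovary, heart, lung, liver, kidney, spleen and adipose tissue at day 240. The other two were mixtures of equal amounts of RNA from several breeds and time points, a muscle mixture of longissimus dorsi and a tissue mixture of several tissues. Each group was 1 library, so no difference had a replicate check. The labels do not give the number of animals behind a library, nor their sex except as testis and ovary imply it. Strand-specific libraries were prepared by SMART or dUTP chemistry without the labels saying which library had which, so that chemistry and stage cannot be told apart.

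Skeletal muscle fibres contract through sarcomeres, the repeating units of thin actin and thick myosin filaments anchored at Z-discs, and they draw much of their energy from mitochondria. After birth the muscle of mammals grows mainly by enlarging existing fibres, while fibre types and the balance between oxidative and glycolytic metabolism mature. Many proteins of the respiratory chain, the ribosome and the citric acid cycle are made in nearly all cells, whereas some sarcomere proteins are shared only by skeletal muscle and heart.

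The day 30 library differed from the other muscle libraries as a whole. Of its 24445391 reads, 14.8% were counted in genes, whereas the day 0 library had 35748717 reads with 20.4% counted and the day 240 library 32641450 with 21.9% counted. The RPKM values summed to 81849 at day 30, 124071 at day 0 and 130870 at day 240, and 1361 Ensembl genes reached 5 RPKM at day 30, against 2476 and 1786. Total reads ranged from 21685316 in ovary to 108337358 in the tissue mixture. Each tissue's defining markers were highest in the library with its label: summed marker RPKM reached 6834 for liver genes in liver, 1340 for lung genes in lung, 303 for kidney genes in kidney, 5785 for testis genes in testis, 651 for ovary genes in ovary, 4879 for heart genes in heart, 153.6 for leukocyte genes in spleen and 176.3 for adipocyte genes in adipose tissue. Liver markers also summed to 414.6 RPKM in lung and ovary markers to 96.5 in testis. The summed RPKM of sarcomere genes was 17261, 15135 and 29760 in muscle at days 0, 30 and 240.

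The 36 genes had a median of 14.6 RPKM at day 0, 2.29 at day 30 and 11.2 at day 240. Over the 1583 genes the medians were 15.2, 7.68 and 11.2, so the chosen genes were close to the others at day 0 and day 240. The fold, defined as the lower of day 0 and day 240 divided by day 30, ranged from 4.11 to 20.5 with a median of 4.96, beside a median of 1.44 over the 1583 genes. Both folds share the day 30 library, and in 25 of the 36 genes day 0 was above day 240. The 1583 genes leaned the same way: the median of day 0 over day 240 was 1.16 for the 36 and 1.27 over the 1583. Nothing particular to the 36 is read from that count. In these bulk samples, fewer cells of a type and less RNA per cell cannot be told apart.

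**Figure D1:**
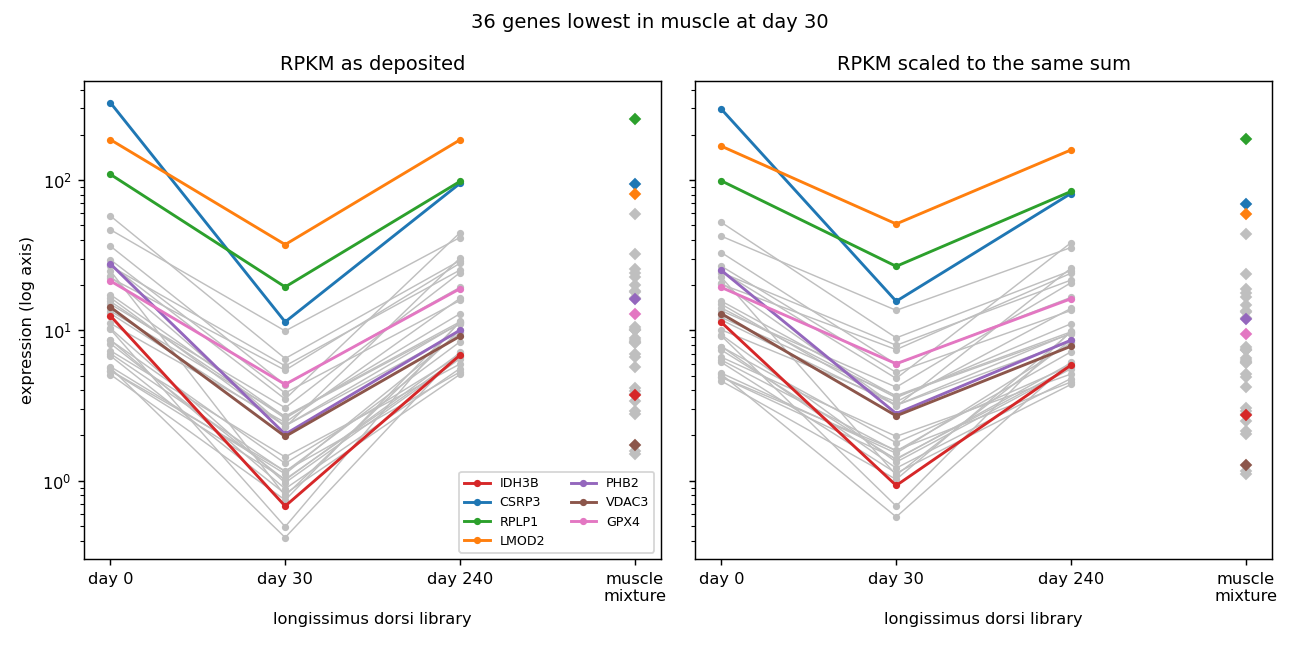
RPKM on a log axis for the 36 genes in longissimus dorsi at days 0, 30 and 240 (lines, 1 library each) and in the muscle mixture (diamonds), as deposited on the left and scaled to the same sum on the right. Coloured lines mark 7 of the named genes and grey lines the others; every gene is lowest at day 30 among the stages, from 0.419 to 37.2 RPKM as deposited, while the mixture values spread from 1.5 to 255.3 RPKM.

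The dip was shallower once the libraries were scaled to the same sum of RPKM. This scaling multiplies every gene's fold by the same factor per stage. A dip of at least 2-fold in all 36 genes therefore followed from the rule. Of the 36, 23 were at least 3-fold lower and 11 still reached 4-fold. Either limit needed more than a 4-fold dip as deposited, so these were the only such genes among the 1583. Over the 1583 genes, 5.5% were at least 2-fold lower on this scale and 0.695% at least 4-fold lower, the latter being the same 11 genes. The median fold of the 36 genes was 3.13 after this scaling, with a range of 2.58 to 13.5, and that of the 1583 genes was 0.905. When the limit of 5 RPKM was also set on the scaled values, 10 of 1387 genes (0.721%) met the rule. All were among the 36, which followed from the scaling, as it lowered day 0 and day 240 and raised day 30. Those with a symbol were CSRP3, DUSP26 and IDH3B. In another scaling, libraries were set to the same median ratio over the 10968 features above 0 in every library. Then 14 of the 36 kept a 4-fold dip. This scaling also lowered every fold, so these 14 were the only such genes among the 1583 (0.884%). With the limit set on the values scaled in this way, 12 of 1482 genes (0.81%) met the rule. All were among the 36, to which only genes newly over the limit of 5 RPKM could have been added. The named ones were CSRP3, IDH3B, MRPS33 and PHB2. CSRP3 and IDH3B were thus the only genes with a symbol to meet the rule as deposited and under both scalings, and DUSP26 met it with the same sum but not with the median ratio, where its fold was 3.31.

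**Figure D2:**
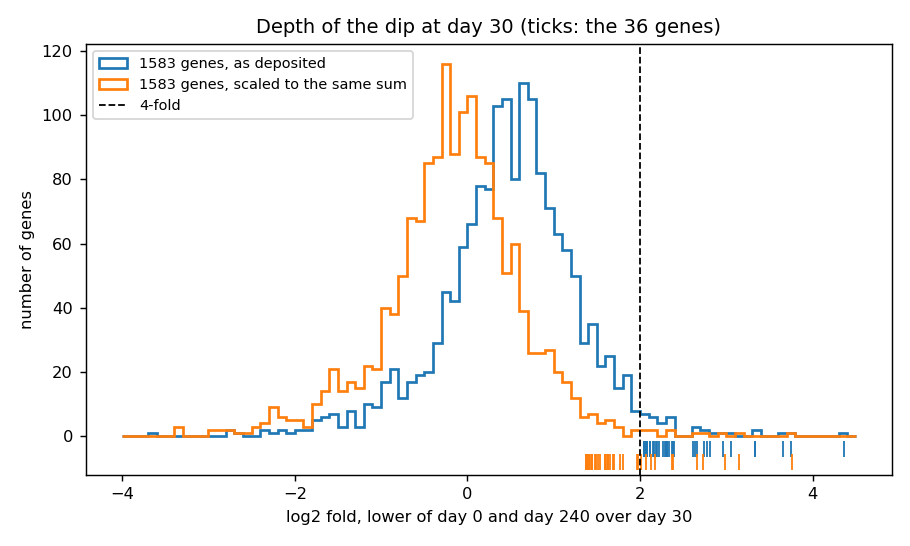
Number of genes by the log2 of the lower of day 0 and day 240 over day 30, for the 1583 genes with at least 5 RPKM at both stages, as deposited (blue) and scaled to the same sum (orange), with the dashed line at 4-fold. Ticks under the histograms mark the 36 genes, all to the right of the line as deposited and 11 of them at or beyond it after scaling.

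The dips rested on few reads in some genes. Exact 95% intervals of the fold, which cover counting error only and make no allowance for the choice of the genes by these same values, lay wholly above 2 in all 36 genes and wholly above 4 in 12. Day 30 held 3 to 1504 reads per gene with a median of 39, against a median of 328 over the 1583 genes, and 4 genes had fewer than 10 reads there. The limit was not a gap in the data. CRBN (4.11-fold), a gene without a symbol (4.13-fold) and CSNK1G2 (4.15-fold) lay just inside it, and a gene without a symbol (3.98-fold), MRPL13 (3.94-fold) and WDR77 (3.93-fold) just outside. A 2-fold dip as deposited was met by 360 of the 1583 genes (22.7%), a 3-fold dip by 105 (6.63%) and an 8-fold dip by 6 (0.379%). In the opposite direction, 17 of the 1361 genes with at least 5 RPKM at day 30 (1.25%) were at least 4 times higher there than at both other stages.

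Both sarcomere proteins among the 15 genes with a symbol were shared by skeletal muscle and heart. CSRP3 encodes muscle LIM protein, a Z-disc protein of striated muscle. It was at 326.5 RPKM at day 0 (exact Poisson 95% interval 320.4 to 332.7), 11.4 at day 30 (10.04 to 12.9) and 94.8 at day 240 (91.4 to 98.4), with 10821, 258 and 2870 reads. The fold of its lower stage over day 30 was 8.33 (7.33 to 9.50) as deposited and 5.21 with the same sum. Among the other organs CSRP3 was at 262.7 RPKM in heart, and at 0.224 or less elsewhere; liver, spleen and kidney had no read, where 3 reads would have been 0.105, 0.0889 and 0.0890 RPKM. The muscle mixture stood at 94.4 RPKM, close to the day 240 value, and the tissue mixture at 23.5.

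LMOD2 encodes leiomodin 2, an actin-binding protein that promotes growth of the thin filament. It was at 185.5 RPKM at day 0, 37.2 at day 30 and 184.8 at day 240, so that the stages on either side of the dip were nearly equal. Its fold was 4.96 (4.70 to 5.24) as deposited and 3.10 with the same sum, and its 1504 reads at day 30 were the most of the 36 genes. It was at 146.3 RPKM in heart and at 0.392 or less in the other organs outside muscle. The muscle mixture held 80.8 RPKM, below day 0 and day 240 and above day 30, and the tissue mixture 20.6.

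Other sarcomere genes had shallower dips or none. None of the 18 genes of a sarcomere list that reached 5 RPKM at both stages met the rule. As 2.27% of the 1583 genes met it, nothing is read from that count. The median fold of the 18 was 1.14 as deposited and 0.73 with the same sum, beside 1.44 and 0.905 over the 1583 genes. None of the 18 was 2-fold lower at day 30 than at both other stages, beside 22.7% of the 1583 genes as deposited. In 2 of them day 30 was at least 2 times the lower of the other stages, without being 2-fold above both.

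The genes with a symbol included the mitochondrial proteins IDH3B, COX5A, PHB2, VDAC3 and MRPS33. They were put together after their values were seen, and PHB2 and VDAC3 were named for that reason alone; the share of mitochondrial proteins over the 1583 genes was not counted, so nothing is read from their number. Their folds ran from 4.48 to 10.1 as deposited and from 2.80 to 6.31 with the same sum. IDH3B encodes a subunit of the NAD-dependent isocitrate dehydrogenase of the citric acid cycle. It was at 12.5 RPKM at day 0 (11.6 to 13.5), 0.678 at day 30 (0.439 to 1.0) and 6.84 at day 240 (6.13 to 7.61), the deepest dip among the genes with a symbol at 10.1-fold (6.72 to 15.8). Its level in heart was 7.37 RPKM and in ovary 6.45, and it ranged from 0.364 in spleen to 2.41 in kidney over the remaining organs. As deposited, heart, ovary and muscle at day 240 were thus alike in level and above the rest. Scaling to the same sum multiplies ovary by 0.524 and liver, at 2.13 RPKM, by 1.71, which would put ovary below liver.

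COX5A encodes a nuclear subunit of cytochrome c oxidase, the last complex of the respiratory chain. It was at 15.6, 2.60 and 12.9 RPKM at days 0, 30 and 240, and at 12.4 in heart, 8.45 in ovary and 5.28 in kidney, with 2.08 or less elsewhere. Both mixtures lay above every single tissue, at 32.1 RPKM for muscle and 30.9 for tissues. PHB2 encodes prohibitin 2, a scaffold protein of the inner mitochondrial membrane, and was at 27.7, 2.04 and 10.03 RPKM. Its organ levels were broad, from 4.51 RPKM in spleen to 33.3 in ovary, so that day 30 muscle was lower than any other organ.

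VDAC3 encodes an anion channel of the outer mitochondrial membrane and was at 14.3, 1.97 and 9.14 RPKM at the stages. It was highest in testis at 24.4 RPKM, followed by heart at 10.1, and at 1.96 or less in liver, spleen, lung, kidney and adipose tissue. The mixtures held little of it: the muscle mixture held 1.74 RPKM (1.49 to 2.02), inside the interval of day 30 (1.55 to 2.46), and the tissue mixture 0.631. MRPS33 encodes a protein of the small mitochondrial ribosomal subunit and was at 57.7, 6.50 and 29.1 RPKM, with 72.1 in ovary and 66.0 in testis. Its muscle mixture value of 24.2 RPKM lay near that of day 240.

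Most genes of the same pathways had shallower dips, as did most of the 1583 genes. Over the 34 nuclear respiratory chain genes that reached 5 RPKM at both stages, the median fold was 1.68 as deposited and 1.07 with the same sum. Of these, 9 and 2 were at 2-fold or more, beside 22.7% and 5.5% of the 1583 genes. COX5A was the only one among the 36, beside the 2.27% of the 1583 genes that met the rule. For these 34 genes the counts were near those shares, so nothing is read from them. COX8A, another subunit of cytochrome c oxidase, was under the limit of 5 RPKM and also lowest at day 30, at 4.13, 0.131 and 0.836 RPKM from 92, 2 and 17 reads. For the 13 subunits encoded by the mitochondrial genome the median was 1.85 and 1.16, and their summed RPKM was 19894, 8600 and 17262 at days 0, 30 and 240. The 9 mitochondrial ribosomal proteins had the deepest median of these lists, 2.54 and 1.59, with 5 and 4 at 2-fold or more, and MRPS33 was the only one among the 36. Partner subunits and relatives of the named genes were looked up after their values were seen. Of 23 found, 7 reached 5 RPKM at both stages; their folds ran from 0.86 to 2.28 with a median of 1.41, and 1 was at 2-fold or more. Among them, IDH3G, another subunit of the same isocitrate dehydrogenase as IDH3B, was at 8.11, 4.80 and 6.52 RPKM, and VDAC1, the related channel, at 49.1, 31.2 and 56.9.

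RPLP1 and POLR2E belong to the machinery of translation and transcription. RPLP1 encodes an acidic protein of the ribosomal stalk, and was at 109.0 RPKM at day 0, 19.4 at day 30 and 97.8 at day 240, a fold of 5.03 (4.40 to 5.77) as deposited and 3.15 with the same sum. It was detected in every organ, from 5.65 RPKM in liver and 16.1 in kidney to 101.8 in testis and 229.4 in ovary, and both mixtures exceeded all single tissues at 255.3 RPKM for muscle and 447.1 for tissues. Liver and kidney were therefore lower than day 30 muscle. RPLP2, the partner of RPLP1 in the stalk, was at 565.5, 157.9 and 159.4 RPKM and so, as deposited, stayed near its day 30 level at day 240. With the same sum its fold was 0.631, so that day 240 lay below day 30. Over 21 ribosomal protein genes at 5 RPKM or more the median fold was 1.75 as deposited and 1.09 with the same sum.

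POLR2E encodes a subunit common to the nuclear RNA polymerases. It was at 26.8, 5.80 and 25.2 RPKM at the stages, and between 5.69 in liver and 55.7 in ovary over the other organs. Ribosomal proteins, COX5A, VDAC3, PHB2 and GPX4 have near-identical copies or pseudogenes in mammalian genomes, and how reads shared with such copies were divided could change their values, which are uncertain to that extent.

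GPX4 encodes the selenium-containing peroxidase that reduces lipid hydroperoxides in membranes and is abundant in sperm. It was at 21.3 RPKM at day 0, 4.37 at day 30 (2.97 to 6.21) and 18.9 at day 240. It was the highest of the genes that peaked in testis, with 302.6 RPKM there, 141.7 in ovary and 80.6 in adipose tissue, and 10.5 to 21.3 in the remaining organs outside muscle.

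CRBN encodes cereblon, the substrate receptor of a CUL4-DDB1 ubiquitin ligase. It was at 22.4, 5.44 and 28.0 RPKM, with 51.8 in testis and 31.7 in ovary. CSNK1G2 encodes a casein kinase of the gamma group and was at 7.33, 1.44 and 5.97 RPKM, with 79.7 in testis against 12.6 or less in the other organs. Both thus had their highest level in testis. CRBN was at 8.84 RPKM in the muscle mixture, much nearer to day 30 than to the other stages.

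DUSP26 encodes a dual-specificity protein phosphatase. It was at 7.01, 1.15 and 8.39 RPKM at the stages, a fold of 6.10 as deposited and 4.03 with the same sum. Outside muscle it was at 3.92 RPKM in heart, 0.896 in ovary and 0.0175 in liver, without a read in spleen, lung, kidney, testis or adipose tissue, where 3 reads would have been 0.0420 to 0.0445 RPKM. It was 1 of 2 genes among the 36 that reached 5 RPKM in muscle alone of the 9 organs, beside 3.28% of the 1583 genes, and the muscle mixture held 10.5 RPKM.

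HSD17B12 encodes a reductase of the cycle that elongates very long chain fatty acids. It was at 5.41, 1.16 and 5.28 RPKM and, as deposited, was the only one of the 36 genes with its highest level in adipose tissue, at 39.6 RPKM, with ovary next at 32.0. DNAJC28, a member of the J-domain family of chaperone partners, was at 6.77, 0.819 and 5.09 RPKM, and highest in testis at 11.3. Its fold of 6.22 as deposited was 3.89 with the same sum, just under the limit.

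The remaining 21 genes had no symbol in the table used here. They ranged from 5.09 to 46.7 RPKM at day 0, from 0.419 to 9.91 at day 30 and from 5.58 to 44.6 at day 240, with folds of 4.13 to 20.5 and a median of 5.21. The deepest dip belonged to ENSSSCG00000028919, at 10.1 RPKM at day 0, 0.494 at day 30 (0.135 to 1.27) and 11.6 at day 240. That dip of 20.5-fold rested on 120, 4 and 125 reads, was 13.5-fold with the same sum, and the muscle mixture held 20.1 RPKM of this gene. ENSSSCG00000024505 had the highest level of any of the 36 genes, in heart. It was at 5.09, 0.744 and 11.3 RPKM in muscle, at 8019 RPKM in heart, at 24.95 in testis and at 11.8 in lung. The tissue mixture held 168.6 RPKM of it and the muscle mixture 1.5.

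The other gene lists held none of the 36 genes. As 2.27% of the 1583 genes met the rule, nothing is read from this, and the median fold over the 1583 genes was 1.44. With at least 8 genes at 5 RPKM at both stages, the median folds as deposited were 1.72 for 13 proteasome subunits, 1.34 for 10 translation factors, 1.06 for 8 genes of fatty acid use, 1.03 for 8 of protein breakdown, 0.64 for 8 of the extracellular matrix and 0.57 for 11 of glycolysis. A fold under 1 says that day 30 was above the lower of the other stages, not above both: in 4 of the 11 glycolysis genes day 30 was at least 2 times the lower stage, while 1 had a dip of at least 2-fold. Lists with fewer such genes had medians of 1.22 for 2 histones, 0.62 for 2 embryonic or neonatal muscle genes, 1.48 for 2 myogenic regulators, 1.77 for the 2 heat shock chaperones HSPA5 and HSPA8, named after their values were seen, of a list of immediate early and stress genes, 1.67 for 2 clock genes and 2.17 for a single interferon gene. Cell cycle genes had none. The list of small nuclear and nucleolar RNAs matched only the symbol SNORC, so nothing is said about such RNAs.

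None of the 36 genes, which are 2.27% of the 1583, was in a list of markers of other cell types. Summed RPKM of these markers at days 0, 30 and 240 was 20.5, 8.54 and 9.98 for blood cells, 2.80, 2.19 and 1.89 for leukocytes, 16.0, 12.7 and 9.15 for endothelium, 5.33, 5.37 and 8.20 for adipocytes, 19.9, 17.9 and 12.5 for smooth muscle and pericytes, and 3.05, 1.37 and 0.140 for nerve. Among these, as deposited, blood cells were the only list lowest at day 30. Scaling to the same sum multiplies day 30 by 1.37 and day 240 by 0.858, which would put blood cells lowest at day 240. Heart markers summed to 379.0, 378.2 and 769.4, and kidney, lung, testis and ovary markers to at most 0.699 in each muscle stage. Liver markers summed to 0.573, 2.83 and 0.0562, with 6, 2 and 5 of 7 at 0 at days 0, 30 and 240. At these stages 5, 3 and 5 of 5 kidney markers and 5, 2 and 5 of 5 lung markers were at 0. For testis these counts were 7, 5 and 4 of 7, and for ovary 2, 2 and 3 of 3. The part of other cell types in the dip was not tested.

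As deposited, the organ with the highest level at day 240 was mostly testis or ovary, for the 36 genes as for the 1583. On that scale 14 of the 36 were highest in testis, 11 in ovary, 5 in heart, 5 in muscle, 1 in adipose tissue and none in liver, spleen, lung or kidney. Over the 1583 genes the shares were 25% in testis, 42.1% in ovary, 9.54% in heart, 15.5% in muscle, 1.26% in adipose tissue, 0.948% in liver, 0.758% in spleen, 1.77% in lung and 3.16% in kidney. The deposited RPKM summed to 190421 in testis and 214285 in ovary against 61672 in spleen. With the same sum, 11 were highest in testis (16.3% of the 1583 genes), 8 in muscle (17%), 6 in heart (12.2%), 6 in ovary (15.3%) and 2 in adipose tissue (8.09%), while liver (3.54%), lung (10.3%) and kidney (6.89%) had 1 each and spleen (10.4%) none.

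**Figure D3:**
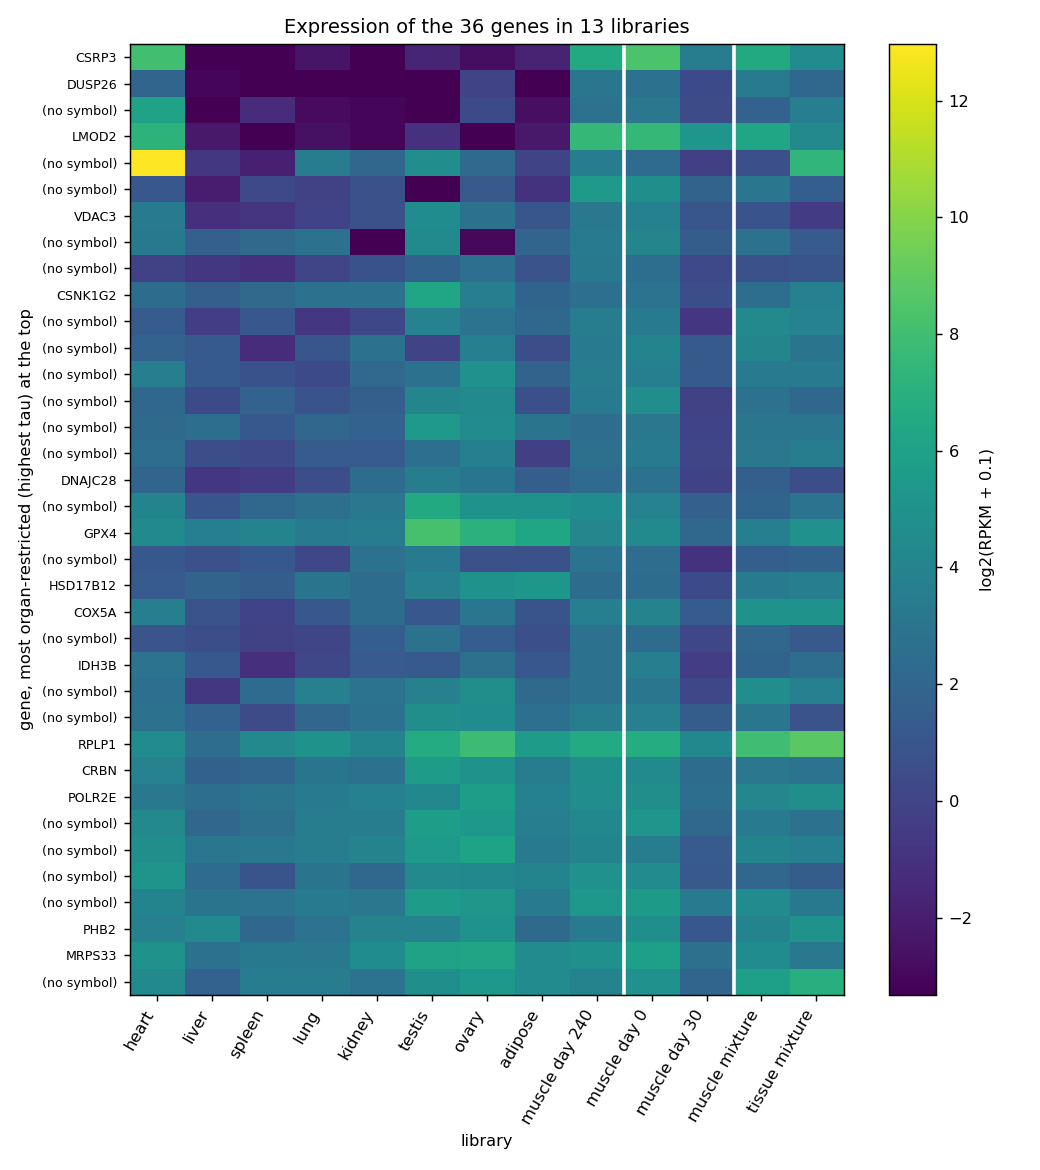
Expression of the 36 genes, as log2(RPKM + 0.1), in 8 organs and muscle at day 240, in muscle at days 0 and 30, and in the 2 mixtures, with white lines between these sets. CSRP3, DUSP26 and LMOD2, near the top, are at 0.896 RPKM or less in the single organs outside muscle and heart, but higher in both mixtures. The brightest cell is the 8019 RPKM of a gene without a symbol in heart.

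In several organs the 36 genes had a lower median than the 1583 genes, to which they were not matched gene by gene for muscle level. Their median was 2.12 RPKM in spleen against 6.20 over the 1583 genes, 4.10 against 9.62 in lung, 5.32 against 9.85 in kidney, 3.78 against 7.18 in adipose tissue and 2.25 against 3.62 in liver. The medians were closer in heart, at 9.90 and 10.8 RPKM, in testis, at 16.3 and 18.7, and in ovary, at 15.8 and 22.1. A level of 5 RPKM was reached in heart by 25 of the 36 (80.3% of the 1583), in liver by 9 (40.4%), in spleen by 9 (57.3%), in lung by 17 (70.8%), in kidney by 19 (74%), in testis by 27 (82.7%), in ovary by 27 (87.7%) and in adipose tissue by 14 (64.4%). All 9 organs reached it for 6 of the 36, beside 32.7% of the 1583. The median number of organs at 5 RPKM or more was 4, and 7 over the 1583 genes. Tau, a measure that is 0 for equal levels in all organs and 1 for a gene seen in a single organ, computed here on log2(RPKM + 0.1), had a median of 0.315 and reached 0.839, with a median of 0.240 over the 1583 genes.

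**Figure D4:**
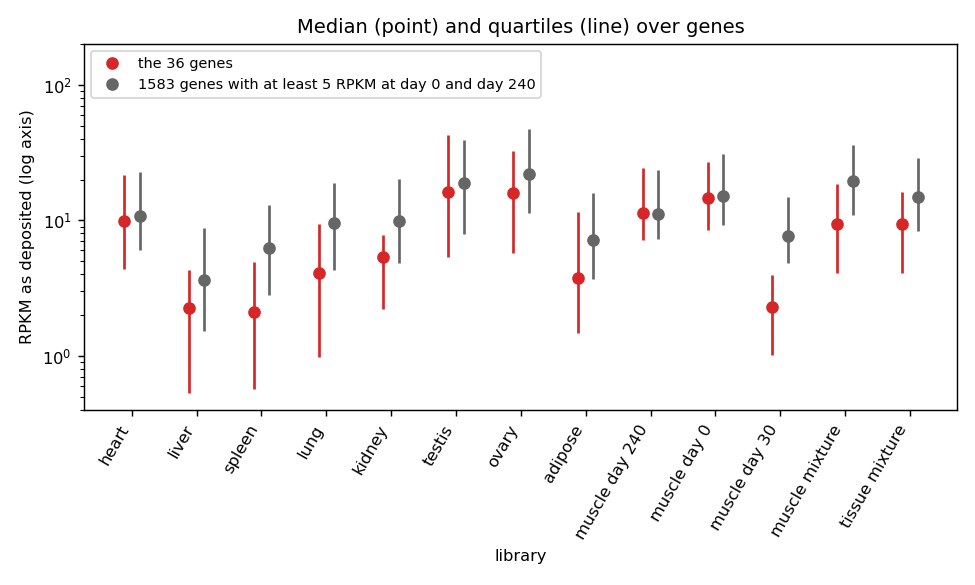
Median (points) and quartiles (lines) of RPKM as deposited, on a log axis, in each of the 13 libraries, for the 36 genes (red) and for the 1583 genes with at least 5 RPKM at day 0 and day 240 (grey). The medians are alike in muscle at day 0 and day 240, which the rule used, and apart in spleen, at 2.12 and 6.20 RPKM, and in the muscle mixture, at 9.42 and 19.4.

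The mixtures, which the rule did not use, held less of these genes than of others. In the muscle mixture 26 of the 36 reached 5 RPKM, beside 96.2% of the 1583 genes, and in the tissue mixture 25, beside 90.3%. The median was 9.42 RPKM in the muscle mixture against 19.4 over the 1583 genes, and 9.33 in the tissue mixture against 14.8. The muscle mixture lay below both day 0 and day 240 for 24 of the 36 genes (24.2% of the 1583). It lay between them for 3 and above both for 9, and it was above day 30 for 35. The tissue mixture lay below both stages for 21 (39.7% of the 1583) and above day 30 for 30. The rule chose low values at day 30, so mixtures above day 30 in most genes were likely from the outset. Shares over the 1583 were not counted for the positions between, above both or above day 30, so nothing is read from them. The muscle mixture exceeded the tissue mixture for 21 of the 36, beside 66.7% of the 1583. The breeds and time points pooled in each mixture are not separated in these values.

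The 36 genes were shorter than the others. The length over which reads were counted, recovered from the values, had a median of 678.5 nt against 1614 nt over the 1583 genes, and 21 of the 36 were under 1000 nt (28.6% of the 1583). By length, the rule was met by 12 of 146 genes under 500 nt, 9 of 306 from 500 to 1000 nt, 14 of 538 from 1000 to 2000 nt, 1 of 407 from 2000 to 4000 nt and none of 186 at 4000 nt or more. The median fold changed little with length below 4000 nt, from 1.53 under 500 nt to 1.42 from 2000 to 4000 nt, and was 1.18 above. The spread around it was wider in short genes: the distance between quartiles of the log2 fold was 1.20 under 500 nt and 0.77 from 2000 to 4000 nt, where the median number of reads at day 30 was 79.5 and 450. Among the 36, the 21 without a symbol had a median length of 549 nt. The share with a symbol was 15 of 36, beside 66% of the 1583. The part of length and read number in the dip was not tested.

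**Figure D5:**
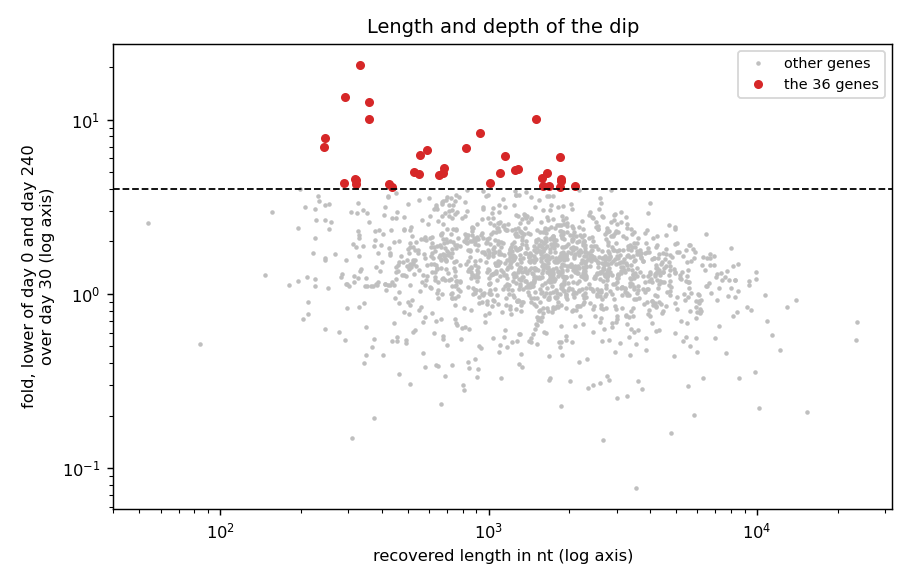
Recovered length in nt against the fold of the lower of day 0 and day 240 over day 30, both on log axes, for the 1583 genes (grey) and the 36 genes (red), with the dashed line at 4-fold. The 5 genes above 10-fold are 293 to 1509 nt long, and none of the 36 exceeds 2104 nt.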

How the data were processed

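The deposited values were RPKM per feature, which the authors computed from read counts per gene; per the labels and the submitters' processing notes, TopHat 1.3.2 and Cufflinks were used, and the study's methods name htseq-count. The genome build of these libraries is not given in the sources used here. Columns were taken as deposited, 1 library per group, and no test was possible with 1 library per stage. Whole reads, library totals and lengths were recovered from the RPKM steps (29462 of 29462 features above 0 gave whole reads within 1e-05), after the recovery had been tested on simulated data. Total reads per library ranged from 21685316 to 108337358 and counted reads from 3620348 to 32507136. Exact Poisson 95% intervals and the floor of 3 reads cover counting error only, since PCR copies are not independent molecules. Libraries were scaled to a sum of 112263 RPKM, the mean of the 3 muscle stages, or to the median ratio. Logarithms used a pseudocount of 0.1. Symbols came from a table that paired 11654 of 21607 Ensembl identifiers; no sequence was used. The 36 genes, 19 gene lists and 12 marker lists were chosen with earlier results of these data known. Genes named were the 15 deepest dips, the 10 highest lower stages, up to 4 per list, the highest per organ and 3 on each side of the limit, with at most 2 identifiers without a symbol. PHB2, VDAC3 and the partner genes were added after values were seen. Python 3.11.15, numpy 2.4.6, pandas 2.3.3 and scipy 1.17.1 were used.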

Additional observations from a re-analysis of the deposited data

How the results depend on the processing

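The number of genes meeting the rule, 36 as reported, was 10 with the same sum, 12 with the median ratio, 197 with a minimum of 1 RPKM, 9 with 20 RPKM, 446 with no minimum, 105 at 3-fold, 6 at 8-fold and 12 when day 30 was set to its upper Poisson limit. Of the 36, a 4-fold dip was kept by 11 with the same sum, 14 with the median ratio and 12 at the upper Poisson limit. The median dip was 2.27 on the log2(RPKM + 0.1) scale and 3.37 at 8-fold. For the genes meeting each altered rule, in the order same sum, median ratio, minimum of 1, minimum of 20, no minimum, 3-fold and 8-fold, the number highest in muscle was 3, 9, 13, 2, 20, 8 and 0, the number at 5 RPKM in the muscle mixture was 6, 5, 63, 8, 66, 89 and 3, and in the tissue mixture 4, 2, 80, 7, 117, 81 and 3. The median length was 360 nt with the same sum and at 8-fold and 1299.5 nt with no minimum. These sets differ in size by construction. The other 21 values, median tau and pseudocounts of 0.01 and 1 among them, moved by less than the limits set for them. No paired analysis was possible because each group was 1 library without a replicate number. With 4 genes under 10 reads at day 30, read number limits the depth of the dip that can be given for them.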
